A study of Xenopus laevis with 4 samples.

Results

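The genes described here are those with fewer transcripts in cloned than in fertilized embryos in both of the experiments of the study. There were 39 of them among the 8524 genes whose mean level over the libraries reached 10 CPM, out of 31179 genes in the tables. CPM is the number of unique molecular identifiers (UMIs, each marking 1 captured RNA molecule) of a gene per 1000000 UMIs of its library. A gene was taken when the log2 ratio of NT to IVF, with 0.5 CPM added to both, was below -0.8 in experiment 1 and again in experiment 2. The values that chose the genes were the 4 library levels themselves, so every NT against IVF value below describes the selection. The p-values of one model over all genes are printed once, for completeness, and lend these genes no support, since the same contrast chose them.

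Ectoderm of Xenopus laevis gastrulae at stage 12 was dissociated and its poly(A) RNA was profiled cell by cell in 4 libraries. NT embryos carried an endoderm nucleus of a stage 21 donor in an enucleated egg, and IVF embryos came from eggs fertilized in vitro. Each library pooled explants of 5 embryos, with 1 IVF and 1 NT library in each of 2 experiments, called IVF1, NT1, IVF2 and NT2, so that every condition had n = 2 libraries. No transgene, mutation or drug treatment was given for any group. NT embryos that looked abnormal at stage 12 were not taken, which limits the libraries to the clones that had developed best.

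In nuclear transfer the egg resets the expression of a differentiated nucleus so that a whole embryo can form. The reset is known to be incomplete: some genes of the donor cell stay on, and some genes that the new tissue needs stay too low. At this stage the frog ectoderm has an outer and an inner layer, from which mucus-secreting, ciliated, basal, cement gland and neural border cells arise. A transcript that is too low in a pool can be low in each cell, or normal in some cells and missing in others, and single-cell counts can separate the cases. The genes carry only model identifiers, none of which was paired with a symbol in the annotation used here, so no gene function, no cell type and no check of the tissue by its markers is given.

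The libraries held 566, 514, 1275 and 1050 cells for IVF1, NT1, IVF2 and NT2, with median depths of 27266.5, 23346, 44371 and 45100.5 UMIs per cell. No cell barcode was shared between libraries. The 39 genes took 0.334% of all UMIs in IVF1 and 0.129% in NT1. In experiment 2 they took 0.634% in IVF2 and 0.221% in NT2. Over all 8524 genes the median log2 ratio was 0.00 in experiment 1 and 0.12 in experiment 2, against -1.16 and -1.50 over the 39. In 28 of the 39 genes both NT libraries lay below both IVF libraries, where 4.83% of all genes did. The remaining 11 genes had a higher level in NT2 than in IVF1.

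The selection was uneven between the experiments. In experiment 1, 133 genes (1.56%) passed the limit alone and in experiment 2, 305 genes (3.58%) did, so that the 39 were 29.3% of the first list and 12.8% of the second. Both conditions together were met by 0.458% of the genes, and 24 genes lay above 0.8 in both experiments. In opposite directions, 18 genes lay below -0.8 in experiment 1 and above 0.8 in experiment 2, and 14 genes the other way round. Just inside the limit, Xelaev18016495m.g had log2 ratios of -0.80 and -1.22, and just outside it Xelaev18021623m.g had -0.82 and -0.80 and Xelaev18019129m.g had -0.79 and -1.33. A further 23 genes met the ratio limits at a mean of 5 to 10 CPM.

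A single gene took a large share of these UMIs. Xelaev18043119m.g, the most abundant of the 39, had 1083 CPM in IVF1 and 467 CPM in NT1. It had 2652 CPM in IVF2 and 1150 CPM in NT2, a level 2.32 and 2.30 times lower in NT, although NT2 stood above IVF1. This gene alone made up 32.4% of the UMIs of the 39 genes in IVF1 and 41.8% in IVF2. Xelaev18014531m.g had 388 and 212 CPM in IVF1 and NT1. Its level was 252 CPM in IVF2 and 134 CPM in NT2, and both NT libraries lay below both IVF libraries.

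Xelaev18030329m.g had the lowest ratios of NT to IVF. Its level was 207 CPM in IVF1 and 20.3 CPM in NT1, then 168 CPM in IVF2 and 2.95 CPM in NT2, a 10.2-fold and a 56.8-fold lower level in NT. Xelaev18025979m.g was similar, with 83.1, 24.2, 60.2 and 1.65 CPM in IVF1, NT1, IVF2 and NT2. These genes had their lowest level in NT2, and the IVF libraries differed little. Xelaev18030202m.g was instead lowest in NT1, with 16.3, 1.45, 19.7 and 5.26 CPM in the same order, from 24 UMIs in NT1.

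In other genes the IVF libraries differed more than the NT libraries did. Xelaev18021230m.g had 115 CPM in IVF1 but 516 in IVF2, while both NT libraries were near 30, at 29.6 and 32.9 CPM. Xelaev18001644m.g had 44.6 CPM in IVF1 and 325 in IVF2, and 20.9 and 44.0 CPM in NT1 and NT2. Xelaev18011954m.g had 66.4, 31.9, 313 and 76.0 CPM, and Xelaev18041369m.g had 71.6, 34.9, 227 and 80.2 CPM, in IVF1, NT1, IVF2 and NT2. For both genes NT2 lay above IVF1, so the condition was visible only within an experiment. Xelaev18023871m.g was steadier, with 202 and 173 CPM in the IVF libraries and 32.8 and 46.1 CPM in NT1 and NT2. In all, 30 of the 39 genes were higher in IVF2 than in IVF1 and 18 of them by more than 2-fold, where 32.3% and 7.70% of all genes were. The IVF levels are among the values that chose the genes, so this difference between IVF2 and IVF1 also describes the selection. The share of this difference that comes from the library chemistry was not tested, and which library had which chemistry was not given.

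**Figure D1:**
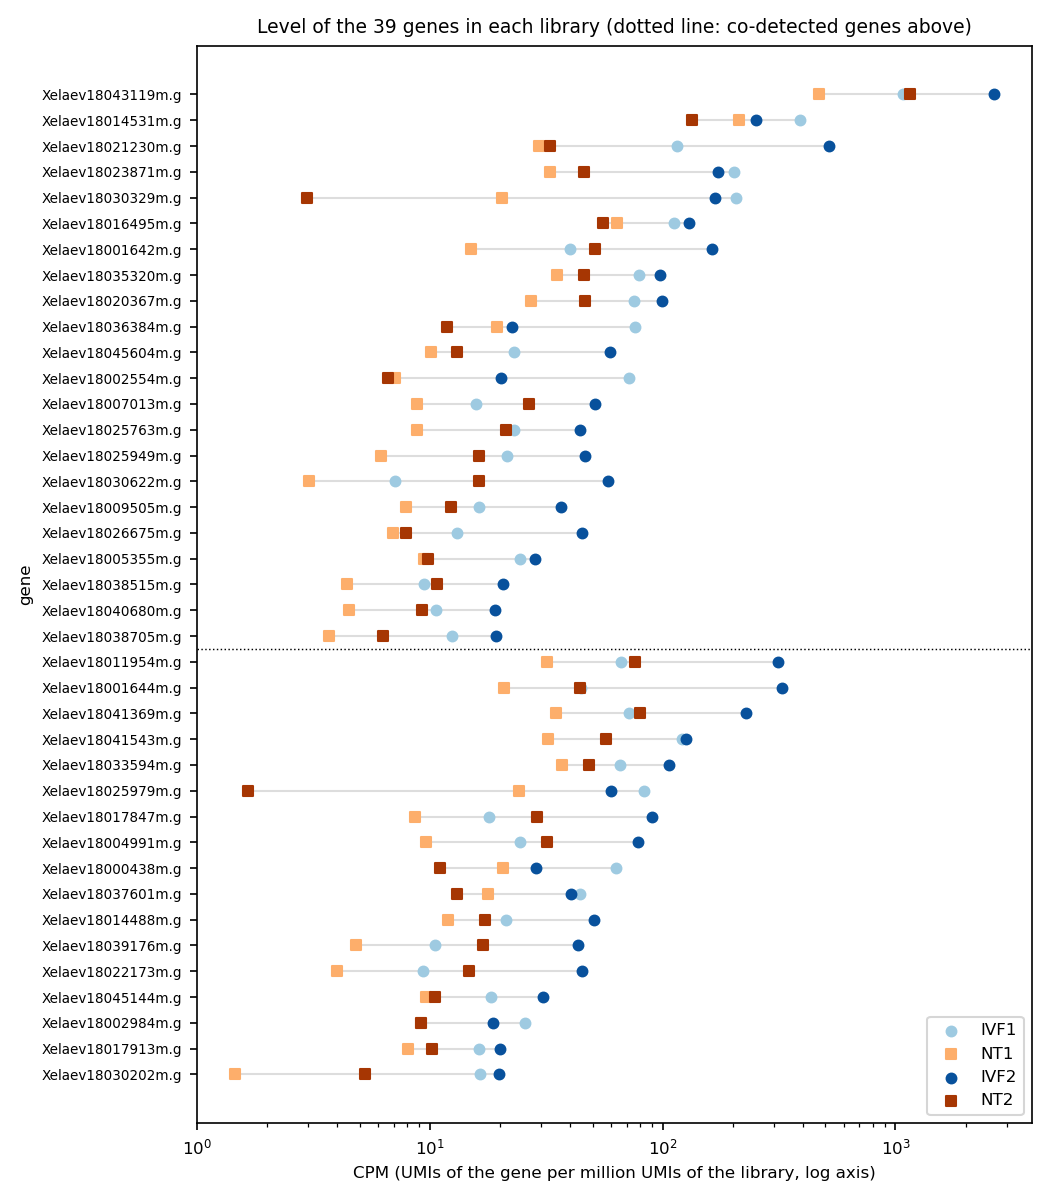
Level of each of the 39 genes in CPM (log axis) in IVF1, NT1, IVF2 and NT2, with the genes detected together in the same cells above the dotted line and the others below it, each ordered by mean level. NT squares lie left of the IVF circle of their own experiment in every row, and the square of NT2 lies farthest left for Xelaev18030329m.g at 2.95 CPM and Xelaev18025979m.g at 1.65 CPM.

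A model over all 18674 genes with enough counts, with the experiment as a block, put no gene past an adjusted p of 0.05 (edgeR quasi-likelihood, 1 residual degree of freedom, lowest adjusted p = 0.054). At an unadjusted p below 0.05 it listed 1243 genes, of which 693 were lower in NT (3.71%), and all 39 genes were among them, as their choice by the same contrast favours. Xelaev18023871m.g had the log2 change -2.34 ± 0.23 (SE, edgeR adjusted p = 0.0802). Xelaev18030329m.g had -4.64 ± 0.59 (edgeR adjusted p = 0.118) and Xelaev18043119m.g -1.29 ± 0.18 (edgeR adjusted p = 0.151). DESeq2 with the same design called 109 genes, 70 of them lower (0.375%), and 34 of these were among the 39; at an unadjusted p below 0.05 all 39 were listed, where 2.48% of all genes were listed as lower. The calls therefore depended on the tool. With 2 libraries per condition the p-values rest on the spread between libraries, each made from 1 pool of embryos. In edgeR most of that spread was estimated across genes (6.88 prior against 1 residual degree of freedom).

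To compare cells of unequal depth, each cell was thinned at random to 6000 UMIs, which kept all cells. Per gene, the fall was then split into the share of cells with a UMI (positive cells) and the UMIs per positive cell. The median gene of the 39 was seen in 15.2% of the cells of IVF1 and 6.23% of those of NT1, and in 20.9% of IVF2 and 8.48% of NT2. UMIs per positive cell had medians of 1.25 and 1.16 in experiment 1 and of 1.41 and 1.18 in experiment 2. At this depth most positive cells held a single UMI, so the share had to carry the fall: it held the larger part in 39 of 39 genes in experiment 1 and in 35 in experiment 2. Without thinning it did so in 31 and in 16 genes, and the median share of positive cells was then 44.2% and 22.4% in IVF1 and NT1 and 56.2% and 35.0% in IVF2 and NT2.

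The abundant genes were lower in both parts. Xelaev18043119m.g was positive in 78.6% of the cells of IVF1 (95% exact binomial interval 75.0 to 81.9%) and in 43.6% of NT1 (39.2 to 48.0%), with 8.93 and 5.71 UMIs per positive cell. In experiment 2 it was positive in 78.7% (76.4 to 81.0%) and 53.9% (50.8 to 57.0%), with 20.6 and 12.2 UMIs per positive cell. Xelaev18021230m.g went from 40.5% positive cells in IVF2 (37.8 to 43.3%) to 12.7% in NT2 (10.7 to 14.8%), and from 7.77 to 1.43 UMIs per positive cell. Here the difference in UMIs per positive cell was larger than that in the share, with log2 parts of -2.44 and -1.68. In experiment 1 the order was reversed for this gene, with -0.54 in UMIs per positive cell and -1.07 in the share. Intervals of shares cover counting error only, with 1 library behind each.

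Xelaev18030329m.g was found in 466 of 1275 thinned cells of IVF2, or 36.5% (33.9 to 39.3%), and in 12 of 1050 of NT2, or 1.14% (0.592 to 1.99%). Xelaev18025979m.g was found in 331 of the cells of IVF2, or 26.0% (23.6 to 28.5%), and in 15 of NT2, or 1.43% (0.802 to 2.35%). At full depth 7.33% and 7.14% of the NT2 cells still held a UMI of these genes, against 67.8% and 76.9% of the IVF2 cells. In NT1 the thinned shares were 7.78% (5.62 to 10.4%) and 13.4% (10.6 to 16.7%), against 47.9% and 37.3% in IVF1. Both genes were thus lower in NT1 too, but the near loss of NT2 was not reached there.

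The 39 genes were not detected in one common set of cells. For each pair of genes with at least 20 positive cells each, the number of cells with both was divided by the number expected if the genes were independent. The median over the pairs was 1.23 and 1.38 in IVF1 and NT1 and 1.18 and 1.21 in IVF2 and NT2, where the median over all pairs of tested genes was 1.00 in every library and the 95th percentile lay between 1.36 and 1.41. Behind these medians stood genes of different kinds. Of the 38 genes other than Xelaev18043119m.g, 21 had a correlation of at least 0.1 with it over the cells of IVF1 and again over those of IVF2 (Pearson, log of 1 plus the thinned UMIs). With Xelaev18043119m.g itself they are the 22 co-detected genes. This split was made after the values were seen, and it uses the IVF cells only. The same limit was met by 9.30% of the genes outside the 39, and by 55.3% of the 38.

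Among these 22 genes the median pair was found together 1.51 times as often as independent genes in IVF1, and 2.00 times as often in IVF2. The 22 were chosen by correlation in these same IVF cells, so values above 1 there follow from the choice. In the NT libraries, which the split did not use, the values were 2.23 in NT1 (136 pairs) and 1.95 in NT2 (210 pairs). The median correlation of a pair was lower in NT, at 0.15 in IVF1 and 0.12 in NT1. It was 0.33 in IVF2 and 0.11 in NT2, so the higher ratio in NT1 does not show a tighter link. In NT1 and NT2, 19 and 18 of the 21 genes kept a correlation of at least 0.1 with Xelaev18043119m.g. Of all genes, 13.1% and 14.6% had such a correlation in NT1 and NT2. The 21 were chosen for this correlation in the IVF cells, which all genes were not, so this gap can follow from the choice. How many of the unselected genes that met the same limit in IVF kept it in NT was not computed. The strongest partners in IVF2 were Xelaev18021230m.g (r = 0.84 over 1275 cells) and Xelaev18016495m.g (r = 0.77). Among the other 17 genes the median pair stood at 1.04, 1.18, 0.995 and 1.04 in IVF1, NT1, IVF2 and NT2, which is the value of independent genes or close to it. Single pairs of the 17 ranged from 0.233 to 2.55 in IVF1 and from 0.136 to 1.66 in IVF2. Xelaev18025979m.g belonged to the 17, with a correlation of 0.03 in IVF1 and 0.32 in IVF2, as did Xelaev18011954m.g, Xelaev18001644m.g, Xelaev18041369m.g and Xelaev18030202m.g. Cells of 1 library share their depth and their pool of embryos, so these correlations are descriptions.

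**Figure D2:**
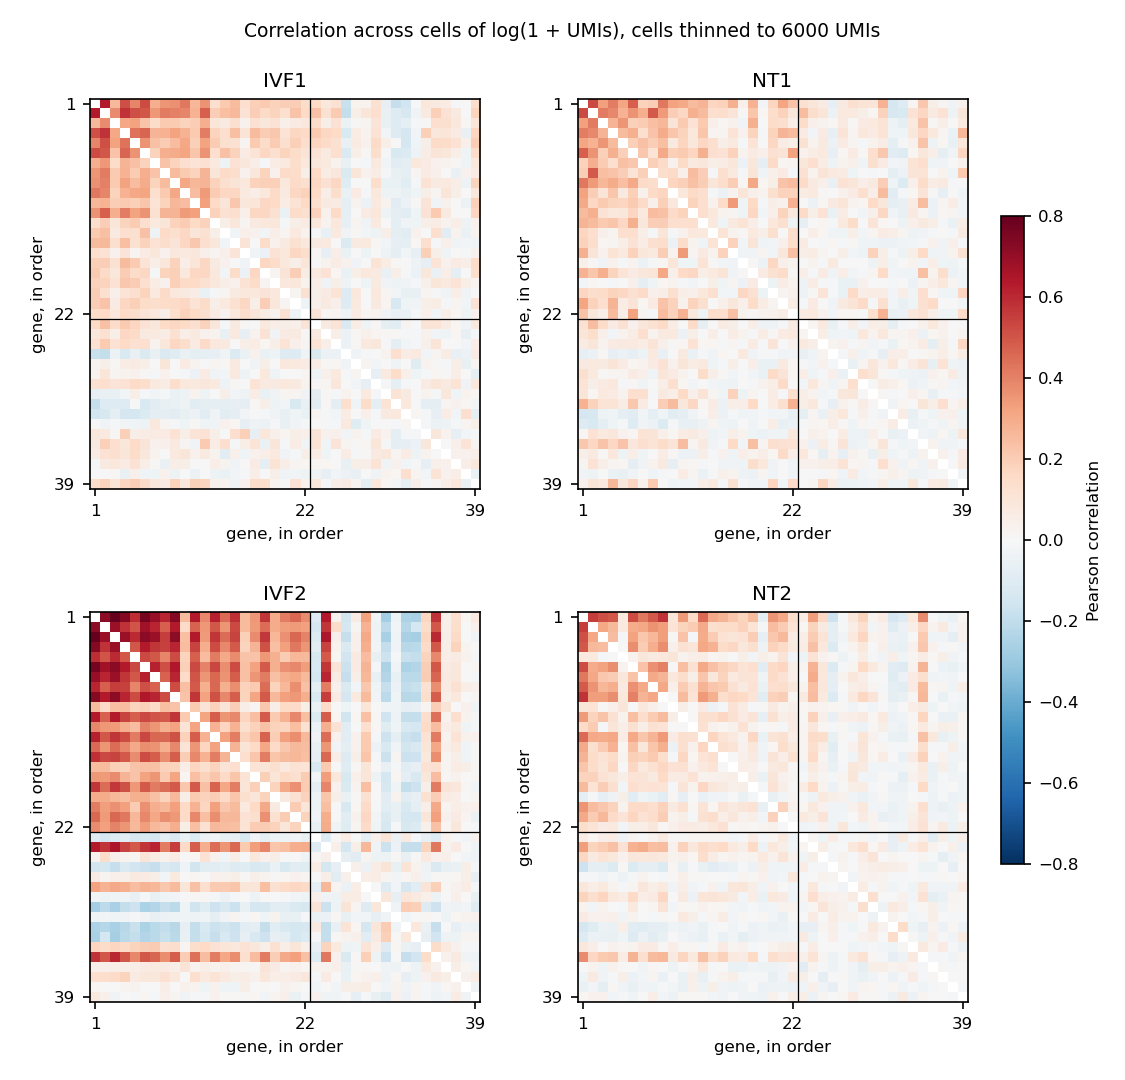
Pearson correlation across cells of log(1 + UMIs) for each pair of the 39 genes in the 4 libraries, thinned to 6000 UMIs per cell, with the 22 co-detected genes first and lines between them and the other 17. The block of positive values in the upper left is strongest in IVF2, where Xelaev18043119m.g and Xelaev18021230m.g reach 0.84. It is paler but present in NT1 and NT2. In the lower right the median lies near 0, with single pairs above and below it.

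Fewer of the 22 genes were seen per cell in NT. In IVF1 the cells formed a low and a high group, with a median of 6 of the 22 genes per cell, and in NT1 the median was 1. The medians of IVF2 and NT2 were closer, at 3 and 2. A cell with none of the 22 genes made up 7.95% of IVF1 (5.86 to 10.5%) and 33.7% of NT1 (29.6 to 37.9%). In experiment 2 it made up 5.65% of IVF2 (4.44 to 7.06%) and 30.3% of NT2 (27.5 to 33.2%). Cells with 10 or more of the 22 genes were 18.2% and 30.1% of IVF1 and IVF2, but 1.36% and 2.29% of NT1 and NT2. All 39 genes together took a median of 0.342% of the UMIs of a cell in IVF1 and 0.0667% in NT1, with 10th to 90th percentiles of 0.0667 to 0.70% and 0.0167 to 0.328%. In experiment 2 the medians were 0.25% and 0.10%, with percentiles of 0.117 to 1.77% in IVF2 and 0.0167 to 0.617% in NT2.

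**Figure D3:**
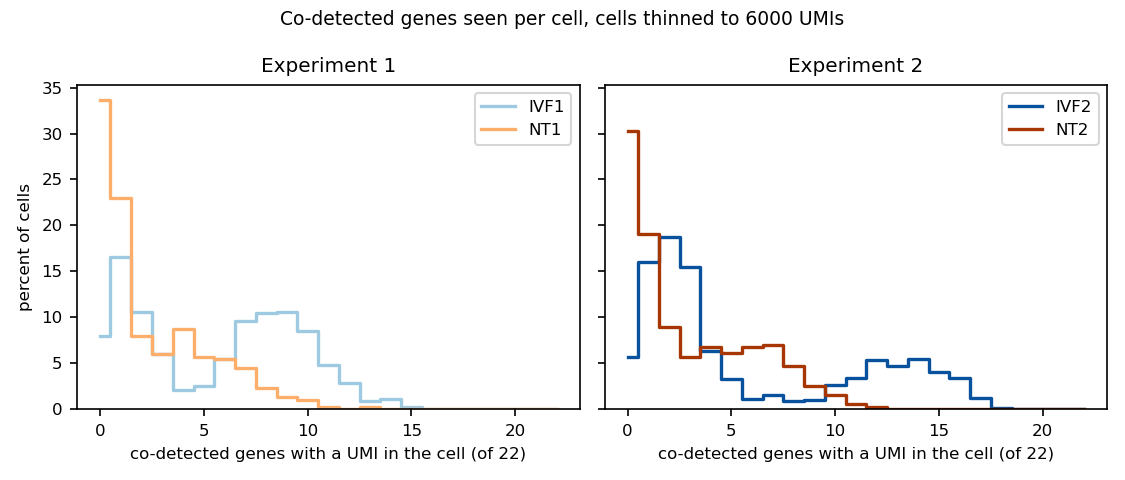
Percent of cells (vertical axis) by the number of the 22 co-detected genes with a UMI (horizontal axis), thinned to 6000 UMIs per cell, in experiment 1 (left) and experiment 2 (right). IVF1 and IVF2 have a second hump of cells with many of the genes, at 10 or more in 18.2% and 30.1% of cells, and in NT1 and NT2 this hump is shifted to the left.

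Cells were then clustered on all genes except the 39, with the libraries aligned, and 8 of 11 clusters held at least 10 cells in every library. In 3 of them, clusters 1, 2 and 3, the summed level of the 22 co-detected genes lay above that of the whole library in both IVF libraries; they are called the high clusters, and the other 5 the low clusters. The high clusters held between 89.8% and 92.7% of the UMIs of the 22 genes in the 4 libraries, but between 40.7% and 57.7% of those of the other 17. That the summed 22 genes were higher there in IVF1 and IVF2 was fixed by the definition of the high clusters. The level of the 22 genes in the high over the low clusters was 11.7 and 19.0 in IVF1 and NT1 and 24.4 and 29.3 in IVF2 and NT2, for the sum, of which Xelaev18043119m.g is a large part. Gene by gene, the median ratio of the 22 was 15.7 and 18.6 in IVF1 and NT1 and 25.8 and 35.9 in IVF2 and NT2. Xelaev18005355m.g, chosen here after its values were seen, was an exception: its ratio was 5.70 in IVF1 and 4.25 in IVF2, but 0.980 in NT1 and 0.486 in NT2. It had 6.79 and 9.76 CPM in the low clusters of IVF1 and NT1 and 13.5 and 13.6 CPM in those of IVF2 and NT2, so its lower level in NT was found in the high clusters. For the sum of the other 17 genes the ratio lay between 1.13 and 1.35, with single genes ranging from 0.113 to 92.2 in IVF2. Xelaev18022173m.g, also chosen after its values were seen, was distributed like the 22, with ratios of 16.8 in IVF1 and 92.2 in IVF2. It was left out of them only by its correlation of 0.07 with Xelaev18043119m.g in IVF1, against 0.58 in IVF2. Xelaev18001644m.g, with a correlation of 0.63 in IVF2, had ratios of 1.62 in IVF1 and 5.86 in IVF2. Of cluster 10, all 22 cells came from NT2, and cluster 9 had cells in experiment 1 only. Both were left out for too few cells, although their levels of the co-detected genes were high too. The sum was 5487 CPM in cluster 10, against 1734 CPM in the whole NT2 library. In cluster 9 it was 5656 CPM in IVF1 and 2690 CPM in NT1. Cluster 6 was left out as well, for its 6 cells in IVF1, although it held 16, 121 and 39 cells of NT1, IVF2 and NT2.

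The share of cells in the high clusters moved in opposite directions in the experiments. They held 56.5% of the cells of IVF1 (52.3 to 60.7%) and 37.0% of NT1 (32.8 to 41.3%), but 33.7% of IVF2 (31.1 to 36.4%) and 42.6% of NT2 (39.6 to 45.6%). When the NT clusters were weighted as in IVF (8 clusters with at least 10 cells on both sides in experiment 1, 9 in experiment 2), the log2 ratio of the summed 39 genes was -1.17 in experiment 1, where it was -1.39 unweighted. In experiment 2 it was -1.71, against -1.57 unweighted. The summed 39 genes were lower in NT in 8 of 8 clusters in both experiments, with median log2 ratios of -1.49 and -1.82.

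Within the high clusters the 22 genes summed to 4425 CPM in IVF1 and 1871 in NT1, and to 12779 in IVF2 and 3417 in NT2. All 22 had a lower CPM in NT there in either experiment, with median log2 ratios of -1.26 and -1.85. Of all genes, 49.5% and 32.3% were lower. By mean thinned UMIs per cell, 21 of the 22 were lower there in experiment 1 and 22 in experiment 2. The 789 genes outside the 39 that met the same correlation limit had medians of -0.05 and -0.37 in these cells, with interquartile ranges of -0.29 to 0.17 and -0.73 to -0.02. Of these 789, 55.0% and 75.8% were lower in NT. The 22 were chosen for their ratios and the 789 are the genes that did not meet that rule, so the gap between them was fixed by the choice and is given as a description.

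The sum of the other 17 genes was lower in NT in both kinds of clusters. It was 756 and 322 CPM in the high clusters of IVF1 and NT1, and 667 and 243 CPM in the low clusters. In experiment 2 it was 1954 and 517 CPM in the high and 1447 and 433 CPM in the low clusters. Gene by gene, all 17 were lower in CPM in the high clusters of experiment 1 and 16 in those of experiment 2. There Xelaev18004991m.g had 23.4 CPM in IVF2 and 29.3 CPM in NT2. By mean thinned UMIs per cell, 16 of the 17 were lower in the high clusters of experiment 1 and 15 in those of experiment 2. Over the 8 clusters, 126 of 136 levels of the 17 genes were lower in NT in experiment 1 and 130 in experiment 2, and 7 genes were lower in all clusters of both experiments. For the 22 co-detected genes, 148 of 176 levels were lower in experiment 1 and 174 in experiment 2, and 8 genes were lower in all clusters of both. Over all genes 50.9% and 41.1% of such levels were lower, and 0.845% of genes were lower in all clusters of both experiments. Xelaev18011954m.g and Xelaev18041369m.g of the 17 were lower in all clusters of both, with log2 ratios by cluster between -2.17 and -0.22 and between -1.59 and -0.16 in experiment 1. Xelaev18025979m.g had 93.2 and 69.4 CPM in the high and low clusters of IVF1 and 30.5 and 17.6 in those of NT1. In IVF2 it had 112 and 32.8 CPM and in NT2 2.42 and 0.78 CPM, the last from 19 UMIs, so its near loss in NT2 reached both kinds of clusters. Xelaev18030202m.g was higher in the high than in the low clusters, by 13.0 times in IVF1 and 9.06 times in IVF2. In IVF1, 300 of its 320 UMIs lay in the high clusters. Of its 1156 UMIs in IVF2, however, 780 lay in the clusters left out. Of those clusters only cluster 6 had cells of IVF2, so these UMIs lay there. Cluster 6 held 121 cells of IVF2 and 39 of NT2, and was left out for its 6 cells in IVF1.

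The low clusters of IVF held some of the 22 genes. Free RNA from other cells can give such counts, although RNA was not detectable in the supernatant per the labels. At 6000 UMIs Xelaev18043119m.g was positive in 54.5% of the low-cluster cells of IVF1 and 65.3% of those of IVF2, with 2.42 and 2.15 UMIs per positive cell, and in 19.6% and 20.7% of those of NT1 and NT2. The median depths of these cells were 27865, 44365, 23647 and 43250 UMIs in IVF1, IVF2, NT1 and NT2. In the high clusters the same gene had 11.8 and 44.7 UMIs per positive cell in IVF1 and IVF2. The part of free RNA in the low clusters was not tested, and the next comparison rests mainly on the values from the high clusters.

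Whether the loss was all-or-none was read from the share of positive cells. If each IVF cell had lost the same fraction of its transcripts, many cells would keep some UMIs; if cells had kept all or lost all, the share would fall by as much as the mean. Both shares were computed from the IVF cells for the ratio of means measured, and the NT share was placed between them, from 0 for an even lowering to 1 for all-or-none. Only genes whose expectations lay at least 5 percentage points apart were placed. Within the high clusters 9 genes could be placed in experiment 1, between -0.28 and 0.36 with a median of 0.27. In experiment 2, 12 genes had positions between -0.19 and 0.78 with a median of 0.13, and 11 of these lay below 0.5. The exception among these 12, Xelaev18007013m.g, chosen here after its value was seen, stood at 0.78. These positions pool clusters 1, 2 and 3, and cluster 2 made up 87 of 430 such cells in IVF2 but 200 of 447 in NT2. Xelaev18007013m.g had 171, 50.4 and 159 CPM in clusters 1, 2 and 3 of IVF2. In NT2 it had 80.7, 9.99 and 96.4 CPM in the same order. The part of this mix of clusters in the positions was not tested. Over all genes that were lower in NT and could be placed, the medians were 0.03 (390 genes) and 0.11 (481 genes), with upper quartiles of 0.18 and 0.26. In experiment 1 the median of the 9 genes thus lay above the upper quartile of all genes placed. Of the other 17 genes, 0 could be placed in the high clusters in experiment 1 and 3 in experiment 2, so these positions are mostly those of co-detected genes. In the low clusters 1 gene could be placed in experiment 1, at -0.10. In experiment 2, 5 genes had positions there between -0.05 and 0.71, with a median of 0.19. The highest was Xelaev18004991m.g, and 4 of the 5 were among the other 17, with a median of 0.30.

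Genes with many UMIs in IVF2 had the widest gaps between both expectations. In the high clusters Xelaev18021230m.g was positive in 95.3% of cells of IVF2 (92.9 to 97.1%), and an even lowering to its NT2 mean would leave 29.6% positive and an all-or-none loss 4.08%. The NT2 share was 27.1% (23.0 to 31.4%), with 1.43 UMIs per positive cell where IVF2 had 9.49. Xelaev18001644m.g, with 92.8% in IVF2 (89.9 to 95.0%), had expected shares of 36.0% and 10.1% and a measured share of 31.8% in NT2 (27.5 to 36.3%). For Xelaev18043119m.g the NT2 share was 92.6% (89.8 to 94.9%), against 97.9% for an even and 30.5% for an all-or-none loss. These shares lay nearer to the even than to the all-or-none expectation. In the low clusters of NT2, taken as a background, 0.923%, 6.27% and 20.7% of cells were positive for these 3 genes. A UMI in a cell can also come from free RNA, whose part in the shares was not tested.

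In experiment 1 Xelaev18043119m.g was positive in 80.5% of the high-cluster cells of NT1 (74.2 to 85.9%), against 92.5% for an even and 52.1% for an all-or-none loss. The interval held neither, and the position was 0.30. Xelaev18014531m.g stood at 86.3% in NT1 (80.6 to 90.9%), against expectations of 86.6% and 54.1%. Xelaev18023871m.g, at 26.3% (20.2 to 33.2%), lay between 32.4% and 15.6%, and Xelaev18030329m.g, at 15.8% (10.9 to 21.8%), lay between 19.3% and 8.19%. For these last genes the interval held the even expectation and did not reach the all-or-none share. The expectations used the mean of the same NT1 cells, and their own error is not in these intervals. With 1 library behind each share, the intervals therefore do not decide between the expectations. In NT2 Xelaev18030329m.g was positive in 2.46% of these cells (1.24 to 4.36%), where the expectations of 2.63% and 0.804% were too close to place it. Taken over all cells instead of the high clusters, 6 genes had a median position of 0.49 in experiment 1 and 11 genes 0.12 in experiment 2, with Xelaev18043119m.g at 0.56 and 0.24 and Xelaev18041369m.g at -0.14 in experiment 2. The NT1 library, which had fewer cells in the high clusters than IVF1, lay farther from the even expectation there than within those clusters. For all genes placed over all cells, the median in experiment 1 was 0.10 (327 genes, interquartile range -0.03 to 0.29). In experiment 2 it was 0.07 (445 genes, -0.01 to 0.26).

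**Figure D4:**
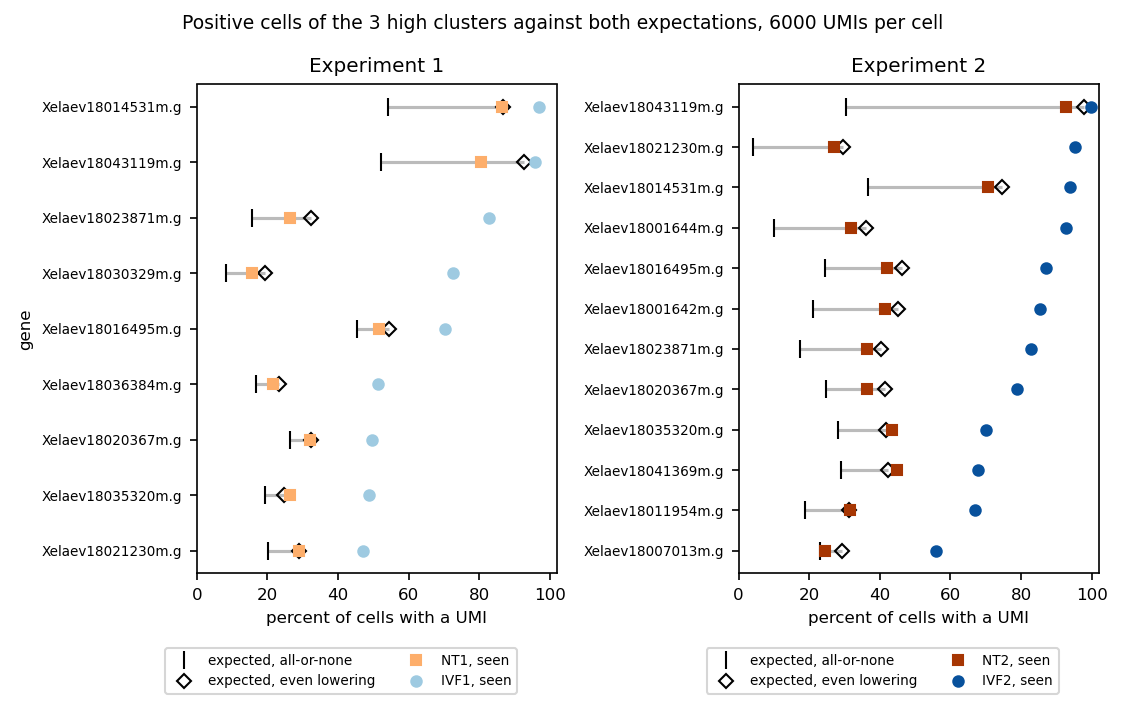
Percent of high-cluster cells with a UMI (horizontal axis, 6000 UMIs per cell) for each gene that could be placed, in experiment 1 (left) and experiment 2 (right): IVF circle, NT square, and the NT share expected from an even lowering (diamond) and from an all-or-none loss (tick). The NT squares lie close to the diamonds for most genes, as for Xelaev18021230m.g at 27.1% in NT2 against 29.6% and 4.08%, and near the tick for Xelaev18007013m.g.

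The UMIs of the 22 genes were also summed in each cell. In the high clusters a thinned cell of IVF1 held a median of 26 of their UMIs (10th to 90th percentile 15 to 41), and one of NT1 a median of 10.5 (3 to 26). In experiment 2 the median was 83 in IVF2 (32.9 to 111) and 19 in NT2 (4 to 40). Xelaev18043119m.g was a large part of these sums. In these clusters it had 11.8, 7.65, 44.7 and 14.7 UMIs per positive cell in IVF1, NT1, IVF2 and NT2. The sums had means of 27.3, 12.5, 78.1 and 20.5 in the same order. No sum per cell without this gene is given. No high-cluster cell of IVF1, NT1 or IVF2 lacked the 22 genes, and 3 of 447 in NT2 did, all in cluster 2. At or above the IVF median of their experiment lay 22 of 190 cells in NT1, or 11.6% (7.4 to 17%). In the high clusters of NT2, which leave out cluster 10, there were 0 of 447 cells. This allows a share of up to 0.671% by 3 counts and 0.822% by the exact interval. Cluster 2 had lower levels and made up 200 of these NT2 cells but 87 of 430 in IVF2, and 5 of the 200, or 2.5% (0.817 to 5.74%), reached the IVF2 median of their own cluster. The relative spread was wider in NT, with a coefficient of variation of 38.2% in IVF1 against 75.0% in NT1, and of 36.4% in IVF2 against 70.1% in NT2. These values pool clusters of different level. Taken by cluster, they were, in experiment 2, 20.4% and 38.7% within cluster 1, 56.6% and 92.2% within cluster 2 and 23.7% and 36.5% within cluster 3. In experiment 1 they were 30.8% and 55.9%, 36.1% and 113%, and 47.3% and 62.2%. The spread that an even lowering alone would give was not computed, so these values do not place the sum between even and all-or-none.

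The clusters differed in how far the distributions separated. In cluster 1 the medians were 29 in IVF1 and 15 in NT1, and 87 in IVF2 and 31 in NT2. In cluster 2 they were 21 and 5 in experiment 1 and 35 and 7 in experiment 2. In cluster 3 they were 24.5 and 9, and 88 and 24.5. In clusters 1 and 3 every NT2 cell lay below the 10th percentile of IVF2, which was 65 and 66 UMIs. The NT2 medians of these clusters were at or above those of IVF1, so a low value was a low value within an experiment, not on a scale common to both.

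**Figure D5:**
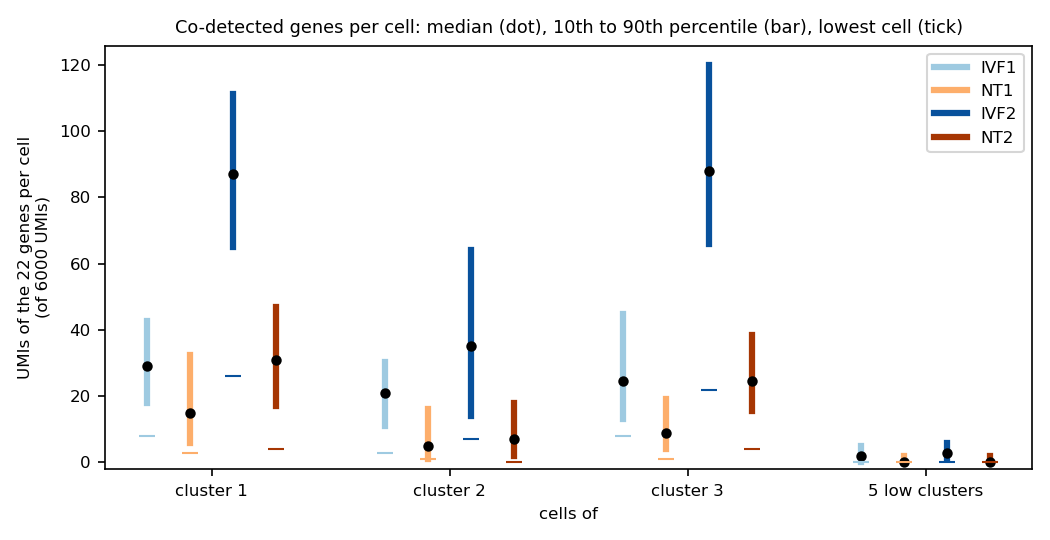
UMIs of the 22 co-detected genes per cell, of 6000 UMIs (vertical axis), in clusters 1, 2 and 3 and in the 5 low clusters, for IVF1, NT1, IVF2 and NT2; dots are medians over cells, bars the 10th to 90th percentile and ticks the lowest cell. In each high cluster the NT median lies below the IVF median of its experiment, as in cluster 1 with 87 in IVF2 and 31 in NT2. The lowest NT cells lie above or near 0. The IVF and NT bars overlap in every high cluster of experiment 1 and in cluster 2 of experiment 2. In clusters 1 and 3 of experiment 2 they are apart.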

How the data were processed

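Whole-number UMI counts per gene and cell were deposited by the authors, who aligned 10x Genomics reads with Cell Ranger (version 2.2.0 in the submitters' processing notes; the methods also name a later version for the newer chemistry, and which library had which is not given in the sources used here) to X. laevis genome v9.1 and kept cells with over 6000 UMIs and 2000 genes. UMIs were summed per library for CPM, with a pseudocount of 0.5, and no filter was added. The 39 genes, the gene sets and the tests were chosen with earlier results of these data known. Library sums were fitted with edgeR 4.0.16 (quasi-likelihood, Benjamini-Hochberg adjustment), with the experiment as a block because IVF and NT libraries of an experiment carry the same replicate number; their shifts between experiments correlated at 0.716 over 18674 genes. DESeq2 1.42.0 was the alternative. Cells were thinned to 6000 UMIs with seed 1. Clusters were made with Seurat 5.3.0 without the 39 genes (2000 variable genes, 20 dimensions, resolution 0.5, libraries aligned). Scrublet, as run in scanpy 1.11.5, called 55 of 3405 cells doublets; they were kept, and left out as an alternative. The scripts were tested on simulated data.

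Genes named in the text were the 6 with the highest mean CPM, the 4 with the lowest mean log2 ratio and the 2 at the ends of the position scale; others were named for a limit or an exception. None of 31179 identifiers matched the 44456 genes of the annotation used. A comparison of member pairs with pairs of matched genes, planned at first, was replaced by all gene pairs. Submission was of 2500 cells per library, and RNA in the supernatant was not detectable, per the labels. PCR duplicates are removed by UMIs, and intervals and floors (3 counts) cover counting error only, at 95% confidence.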

Additional observations from a re-analysis of the deposited data

Results flagged for a closer look

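The share of cells in the 3 high clusters moved in opposite directions in the experiments: NT minus IVF was -19.6 percentage points in experiment 1 and 8.85 percentage points in experiment 2. It stands out because the sign differs between the experiments. With 1 library per condition in each experiment, the difference was not tested.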

How the results depend on the processing

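The number of genes stayed within 1.5 times of 39 (27 to 47) under other pseudocounts, a limit of -1, a minimum of 20 CPM, TMM-scaled sizes, averaging over cells and removal of doublets, and was 62 at a minimum of 5 CPM. With either experiment alone it was 133 to 305. Averaging CPM over cells gave 44 genes, 35 of them among the 39. All 100 alternative log2 ratios of the named genes stayed below -0.8 (-5.78 to -0.86).

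With the experiment as a replicate block edgeR called 0 genes and without the block 0 (186 at an unadjusted p below 0.05, 16 of the 39); with DESeq2 size factors it called 0. DESeq2 called 109 genes, 34 of the 39, and edgeR with no filter on low counts 437, 36 of the 39. Leaving out 1 library gave 0 to 157 calls (157 without IVF1, 27 without NT1, 0 without IVF2, 12 without NT2), 0 to 11 of them among the 39; a lone library is then assumed to vary like the others. The cause was not tested.

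The median log2 part in the share was -1.08 in experiment 1 and -1.17 in experiment 2. It was -0.94 and -0.62 without thinning, -1.18 and -0.82 at 15000 UMIs, -1.69 and -2.30 when a positive cell needed 2 UMIs, and -1.24 in experiment 1 with another seed. The part in UMIs per positive cell was -0.11 and -0.28, against -0.47 and -0.74 without thinning and -0.29 and -0.51 at 15000 UMIs. The split thus moved with the depth.

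Over all cells the median position between even and all-or-none was 0.49 in experiment 1 and 0.22 at 15000 UMIs. Genes placed were 6 and 11, against 26 and 39 without thinning, 16 and 22 at 15000 UMIs, and 2 and 6 when the expectations had to lie 10 percentage points apart. Within the high clusters, a comparison chosen after seeing the data, the median of experiment 1 was 0.27, and 0.13 both without thinning (0.128) and at 15000 UMIs (0.134).

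The median co-detection was 1.23 in IVF1 and 1.18 both without thinning (1.179) and with at least 50 positive cells (1.178); without thinning it was 1.05 in IVF2 and 1.51 in NT1. The median Spearman correlation over pairs lay between 0.13 and 0.17. Without the 3 most abundant genes the median share of UMIs per cell was 0.167% in IVF1, 0.0333% in NT1 and 0.0667% in NT2. Within-cluster falls kept their direction and size with the experiment as the batch, at resolutions 0.3 and 0.8 and without doublets (-1.89 to -1.13). Depth limits the position: at 6000 UMIs 33 of the 39 genes in experiment 1 and 28 in experiment 2 could not be placed over all cells.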
